A study of Mus musculus with 8 samples.

Results

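The genes described here are the inhibitory checkpoint receptors of T cells, 9 receptor genes (Pdcd1, Ctla4, Lag3, Havcr2, Tigit, Cd160, Cd96, Btla and Cd200r1), together with Tox, a nuclear factor that is no receptor. They were chosen by name, and all 10 were found among the 47493 genes measured. RNA was sequenced from endogenous CD8+ T cells of 4 female C57BL/6 mice aged 6 to 8 weeks when the experiment began. Every mouse received 200000 B16-F10 melanoma cells on day 0, 300 mg/kg cyclophosphamide on day 3, 2000000 Pmel-1 cells (CD8+ T cells with a transgenic receptor for a melanoma antigen, marked by Thy1.1) on day 5, 10000 IU of recombinant human IL-2 a day for 3 days from day 5, and 200 μg of the CD4-depleting antibody GK1.5 on days 10, 17 and 24. On day 25, Thy1.1-negative CD8+ T cells from the inguinal lymph nodes and spleen were split on a magnetic column into an IL-18Rαhi-enriched fraction and the flow-through, so each fraction has n = 4 and both fractions share every treatment. There was no untreated mouse and no mouse without anti-CD4, so the fractions are compared within 1 regimen.

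Checkpoint receptors dampen the T cell that carries them, and many, but not all, are induced by antigen receptor signaling. PD-1 (Pdcd1) recruits phosphatases to the antigen receptor and CD28, CTLA-4 takes the ligands CD80 and CD86 from CD28, and TIGIT and CD96 compete with the activating receptor CD226 for the ligand CD155 (Pvr). These receptors are found on recently activated cells as well as on exhausted cells, and TOX is best known as the factor that maintains the exhausted state under lasting antigen.

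Most of the checkpoint genes were higher in the IL-18Rαhi-enriched cells, and one of the most abundant was not. Of the 10 genes, 8 rose with an adjusted p under 0.05 (limma on log2(FPKM + 1), Benjamini-Hochberg over 12166 genes), against 14.1% of all genes tested, and none fell, against 13.7%. None fell at an unadjusted p under 0.05 either. FPKM is a fragment number scaled to transcript length and to the mapped depth of the library. Havcr2, which encodes TIM-3, rose the most, followed by Pdcd1, Cd160, Tigit and Lag3. Cd96 and Tox did not pass the test. The median log2 fold change of the 10 genes was 1.32, and that of all genes tested was -0.02.

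Promoter sequences of 7 of the 10 genes (Pdcd1, Ctla4, Havcr2, Tigit, Cd160, Cd96 and Btla) were taken from RefSeq on the GRCm38.p6 assembly. Lag3, Cd200r1 and Tox had no entry. The 250 bases before the annotated start were searched on both strands for 7 short motifs, none of which overlapped another where found. TGTGGT, the core bound by RUNX factors, was found in 5 of the 7 (Havcr2, Tigit, Cd160, Cd96 and Btla), and 14.2% of 27025 promoters of the same length held it. TGGAAA, the core of NFAT sites, was found in Ctla4 and Cd96 (18.7% of all promoters). TGANTCA, an AP-1 site, was found in Havcr2 (6.87%), and TTCNNNGAA, a STAT site, in Cd96 (7.18%). GGTGTGA of T-box factors (3.31%), CTTTGA of TCF and LEF factors (14.0%) and AAGGTCA of NR4A factors (4.05%) were in none of these 7 windows. Shown are the gene that rose the most, a gene that rose with RUNX letters alone, and Cd96, which did not pass the test. Capitals mark the matched letters, on either strand, and each sequence reads 5′ to 3′ along the gene:

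Havcr2 promoter, chr11:46454681-46454930, plus strand: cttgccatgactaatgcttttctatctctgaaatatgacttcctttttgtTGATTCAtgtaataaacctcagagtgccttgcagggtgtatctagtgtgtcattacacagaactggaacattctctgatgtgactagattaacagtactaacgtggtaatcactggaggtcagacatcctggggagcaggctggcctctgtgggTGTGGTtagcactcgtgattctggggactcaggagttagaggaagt

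Tigit promoter, chr16:43664185-43664434, minus strand: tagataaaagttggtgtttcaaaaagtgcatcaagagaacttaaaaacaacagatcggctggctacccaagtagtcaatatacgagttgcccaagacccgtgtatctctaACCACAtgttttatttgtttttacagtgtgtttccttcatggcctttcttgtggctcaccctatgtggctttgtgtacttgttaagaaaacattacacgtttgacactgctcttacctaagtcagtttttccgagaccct

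Cd96 promoter, chr16:46120249-46120498, minus strand: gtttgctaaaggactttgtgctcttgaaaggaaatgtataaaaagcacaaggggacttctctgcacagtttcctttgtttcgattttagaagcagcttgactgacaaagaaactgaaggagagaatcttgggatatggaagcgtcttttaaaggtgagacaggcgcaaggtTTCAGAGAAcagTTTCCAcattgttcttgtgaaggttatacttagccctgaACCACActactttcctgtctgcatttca

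The RUNX letters were therefore in promoters of genes that rose and of one that did not. In Havcr2 they lay 46 to 41 bases before the start, in Tigit 140 to 135 and in Cd96 28 to 23. A match describes letters and not a bound site.

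The libraries were alike in depth, estimated at 14800000 to 17800000 fragments, with 11706 to 12288 genes at 1 FPKM or more. Flow-through replicate 1 stood apart: its 8 CD8 T cell identity genes lay 0.82 log2 units below those of the other flow-through libraries, and its summed erythroid markers were the highest, at 2705 FPKM. All 10 checkpoint genes had their lowest flow-through value in this library. Values are therefore also given without it and after T cell scaling, in which the libraries were set to the same mean log2 level of the identity genes. T cell scaling shifted the median of all genes to a log2 fold change of -0.35. After it 6 of the 10 genes rose (3.04% of all genes rose and 7.11% fell), and without flow-through replicate 1 the number was 8 (14.2% rose and 12.9% fell). With the mouse as a block 9 rose (22.2% rose and 22.7% fell). In bulk RNA, more cells carrying a transcript and more transcript per cell cannot be told apart. Il18r1, the gene of the receptor used for the enrichment, went from 30.6 ± 6.96 to 110.8 ± 3.87 FPKM (SD, n = 4).

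Pdcd1 (ENSMUSG00000026285, chromosome 1, 94038305 to 94052553, minus strand, mm10) encodes PD-1. Its level was 5.63, 11.2, 8.75 and 10.8 FPKM in flow-through replicates 1 to 4. It was 22.8, 27.1, 31.5 and 24.8 FPKM in the enriched fractions of the same mice. Every enriched library lay above every flow-through library, which held for 16.4% of all genes tested (15.9% had every enriched library below). The level went from 9.09 ± 2.55 to 26.6 ± 3.74 FPKM (SD), which is 1.48 ± 0.20 (SE) on the log2 scale (limma adjusted p = 0.00194). It was 1.15 after T cell scaling and 1.29 with flow-through replicate 1 left out, and passed the test in both.

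Of the PD-1 ligands, Cd274 (PD-L1) was measured at 6.18, 12.7, 11.1 and 12.1 FPKM in the flow-through, against 8.66, 12.1, 11.2 and 14.1 in the enriched libraries. The groups overlapped and the log2 difference of 0.15 did not pass the test (95% confidence interval -0.36 to 0.66, limma adjusted p = 0.642). Pdcd1lg2 (PD-L2) rose from 1.42 ± 0.489 to 3.57 ± 0.732 FPKM (log2 fold change 0.93, limma adjusted p = 0.0071), and did not pass after T cell scaling (0.60, adjusted p = 0.0792). Ptpn6 (SHP-1) and Ptpn11 (SHP-2), the phosphatases that PD-1 recruits, had log2 differences of 0.28 and 0.14 and did not pass. Ptpn6 passed with the mouse as a block (limma adjusted p = 0.0357).

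Ctla4 (ENSMUSG00000026011, chromosome 1, 60887000 to 60915832, plus strand) was at 4.63, 9.84, 7.69 and 10.1 FPKM in the flow-through. In the enriched libraries it was at 11.6, 19.4, 18.1 and 24.2 FPKM. The lowest enriched library, that of mouse 1, was close to the highest flow-through library, that of mouse 4, and the groups did not overlap. The rise was 1.10 ± 0.27 (SE) on the log2 scale (limma adjusted p = 0.018). It was lost after T cell scaling (0.77, adjusted p = 0.0553), and without enriched replicate 2 (1.06, adjusted p = 0.052) or 4 (0.95, adjusted p = 0.0518). With the mouse as a block the T cell scaled value passed (adjusted p = 0.033), a fit added after seeing the data.

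Ctla4 is also carried by regulatory T cells, which are defined by the factor Foxp3. Foxp3 was at 1.12, 2.71, 2.23 and 4.40 FPKM in the flow-through, against 5.86, 11.7, 9.98 and 19.0 in the enriched libraries. In each fraction, Ctla4 and Foxp3 ranked the mice in the same order (1, 3, 2, 4 from low to high). The NK cell marker Ncr1 ranked them in that order as well. Of 5 CD4 and regulatory T cell markers, 4 rose (3 after T cell scaling), and their summed level was 5.03 to 14.4 FPKM in the flow-through, against 35.2 to 65.3 in the enriched libraries, with none at 0. Cd4 itself went from 0.31, 0.57, 0.49 and 1.28 to 1.80, 3.44, 2.58 and 7.90 FPKM. The part of these cells in the Ctla4 difference was not tested. Of the genes beside which Ctla4 acts, Cd28 rose from 24.0 ± 5.95 to 43.2 ± 2.13 FPKM (log2 fold change 0.86, limma adjusted p = 0.00871), and did not pass after T cell scaling (0.53, adjusted p = 0.0528). Its ligand Cd80 rose by 0.95 at low level (0.939 ± 0.370 to 2.77 ± 0.858 FPKM), and did not pass after T cell scaling (0.62, adjusted p = 0.0911). Cd86 had a difference of 0.69 that did not pass (limma adjusted p = 0.0601) but did with the mouse as a block (adjusted p = 0.00362).

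Lag3 (ENSMUSG00000030124, chromosome 6, 124904361 to 124911705, minus strand) encodes a CD4-like receptor that binds MHC class II. Its level was 11.3, 22.2, 18.4 and 20.5 FPKM in the flow-through. It was 47.5, 47.8, 48.5 and 45.1 FPKM in the enriched libraries, which lay close together. The rise was 1.38 ± 0.18 (SE) on the log2 scale (limma adjusted p = 0.00194), 1.05 after T cell scaling and 1.18 with flow-through replicate 1 left out. Among its other ligands, Lgals3 (galectin-3) rose from 80.0 ± 23.8 to 289 ± 11.7 FPKM, a log2 fold change of 1.89. Fgl1 was at 0 in all libraries but flow-through replicate 3 (0.102 FPKM) and was below the expression filter. The start of Cd4 lies 23484 bases from that of Lag3. Ptms, whose start lies 8398 bases away on the other side, rose by 1.34 (limma adjusted p = 0.00185).

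Havcr2 (ENSMUSG00000020399, chromosome 11, 46454935 to 46481255, plus strand) had the lowest mean of the 10 genes in the flow-through, at 2.27, 3.71, 3.75 and 3.66 FPKM, with Cd200r1 lower in replicates 1 and 3. It was at 12.1, 13.4, 14.6 and 16.1 FPKM in the enriched libraries. The ratio of the means was 4.20, and the rise of 1.80 ± 0.15 (SE) on the log2 scale (limma adjusted p = 0.000291) was the largest of the 10 genes. It was 1.47 after T cell scaling and 1.67 with flow-through replicate 1 left out. TIM-3 binds galectin-9, CEACAM1 and HMGB1. Lgals9 fell from 189 ± 23.5 to 121 ± 6.50 FPKM (log2 fold change -0.63, limma adjusted p = 0.0035), while Ceacam1 (0.64, 95% confidence interval -0.02 to 1.29) and Hmgb1 (0.01, -0.25 to 0.28) did not pass. Ceacam1 passed with the mouse as a block (limma adjusted p = 0.00232). Dendritic cells and macrophages also carry TIM-3. Of 10 myeloid and dendritic cell markers, 8 rose (4 after T cell scaling and 5 with flow-through replicate 1 left out), with a summed level of 114.9 to 391.9 FPKM in the flow-through, against 383.1 to 905.0 in the enriched libraries and none at 0. Their part in the Havcr2 difference was not tested.

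**Figure D1:**
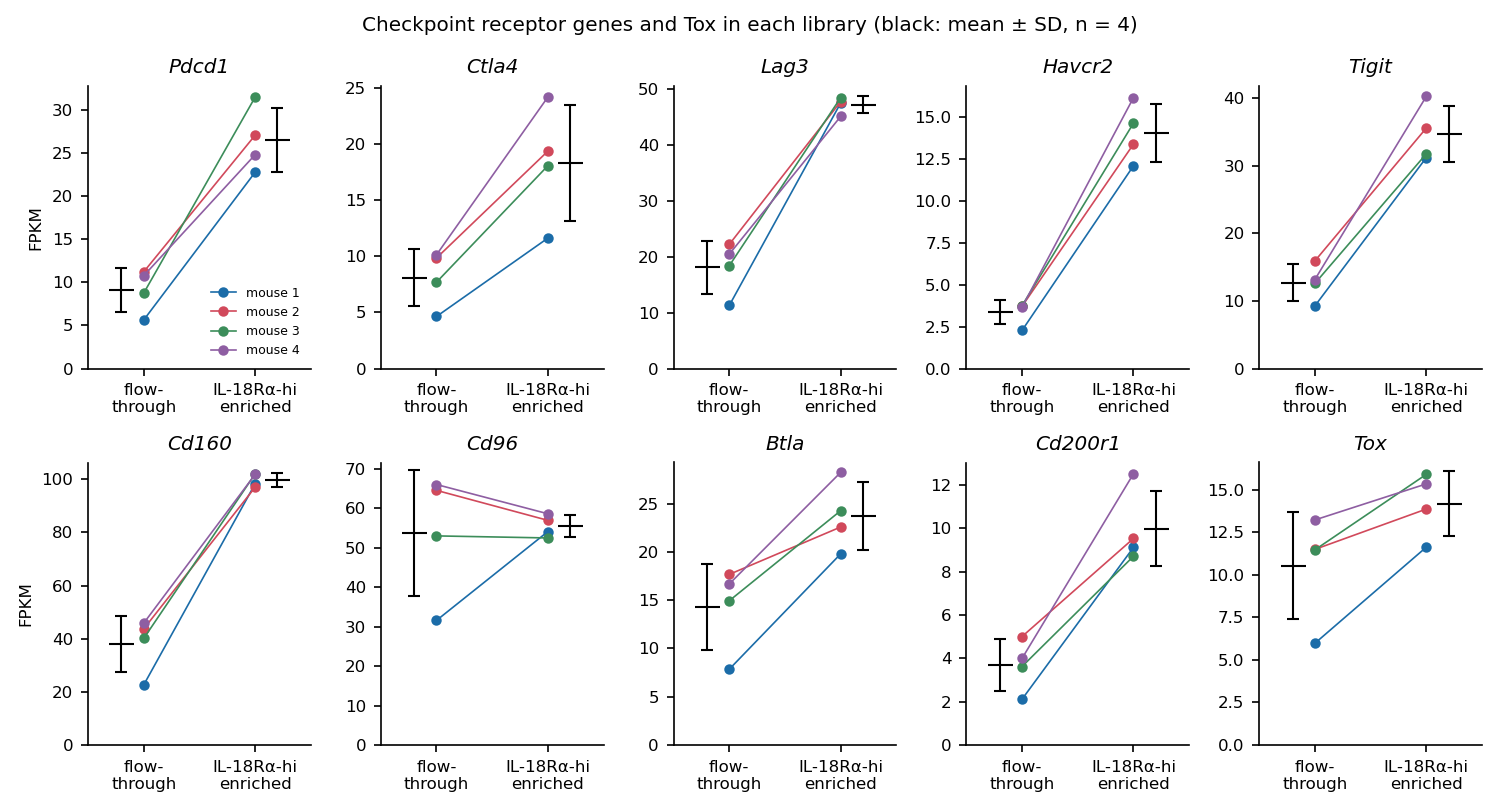
FPKM of each of the 10 genes in the flow-through and the IL-18Rαhi-enriched library of each mouse, with lines joining the fractions of 1 mouse and black bars giving the mean ± SD (n = 4). The enriched libraries lie above all flow-through libraries for 8 of the 10 genes, against 16.4% of all genes tested, while Cd96 and Tox overlap. Mouse 1 is the lowest flow-through point in every panel.

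Tigit (ENSMUSG00000071552, chromosome 16, 43648867 to 43664146, minus strand) was at 9.24, 15.9, 12.6 and 13.1 FPKM in the flow-through. It was at 31.2, 35.5, 31.7 and 40.2 FPKM in the enriched libraries. The groups lay far apart, 1.39 ± 0.15 (SE) log2 units from each other (limma adjusted p = 0.00103), 1.06 after T cell scaling and 1.26 with flow-through replicate 1 left out. The part of regulatory T cells and NK cells, whose markers are given with Ctla4 and Cd160, in the Tigit difference was not tested. Cd96 (ENSMUSG00000022657, chromosome 16, 46035657 to 46120251, minus strand), which binds the same ligand CD155, was at 31.5, 64.5, 52.9 and 65.9 FPKM in the flow-through. It was at 54.1, 56.9, 52.4 and 58.5 FPKM in the enriched libraries. Cd96 was higher in the enriched fraction of mouse 1 and lower in that of the other 3 mice, and the groups overlapped. Its log2 difference was 0.10 (95% confidence interval -0.38 to 0.58, limma adjusted p = 0.753), and it turned to -0.23 after T cell scaling and to -0.13 when flow-through replicate 1 was left out.

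Cd226, the activating receptor of the CD155 family, rose from 30.5 ± 8.73 to 53.7 ± 2.85 FPKM (log2 fold change 0.84, limma adjusted p = 0.017), and did not pass after T cell scaling (0.51, adjusted p = 0.0565). Ratios within a library do not depend on its scaling. For 5 ratios of a checkpoint gene to a partner, the fractions were compared by an exact two-sided permutation test over 70 arrangements. Its smallest possible p is 0.0286, adjusted over the 5. It does not use the pairing by mouse, for which the smallest possible p is 0.125 (exact sign-flip permutation test). The ratio of Tigit to Cd226 was 0.501, 0.412, 0.414 and 0.378 in the flow-through. It was 0.572, 0.715, 0.584 and 0.713 in the enriched libraries, higher in 4 of 4 mice. The log2 difference was 0.60 (exact permutation p = 0.0286, adjusted p = 0.0358), and p was 0.0571 without enriched replicate 2 (0.55) or 4 (0.55).

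The ratio of Cd96 to Cd226 moved the other way. It was 1.71, 1.67, 1.74 and 1.90 in the flow-through, against 0.992, 1.14, 0.964 and 1.04 in the enriched libraries, and was lower in 4 of 4 mice. The log2 difference was -0.76 (exact permutation p = 0.0286, adjusted p = 0.0358), and it passed at p = 0.0286 whichever library was left out. The flow-through libraries thus had more Cd96 than Cd226 per length, and the enriched libraries about as much of each. Pvr, which encodes CD155, had a log2 difference of 0.32 that did not pass (limma adjusted p = 0.14) but did with the mouse as a block (adjusted p = 0.0426). Nectin2, another ligand of the family, fell from 2.20 ± 0.702 to 0.589 ± 0.170 FPKM (log2 fold change -0.99, limma adjusted p = 0.00618).

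Cd160 (ENSMUSG00000038304, chromosome 3, 96798763 to 96829351, minus strand) and Btla (ENSMUSG00000052013, chromosome 16, 45224315 to 45257670, plus strand) both bind HVEM, the product of Tnfrsf14. Cd160 was at 22.6, 43.7, 40.1 and 45.8 FPKM in the flow-through. It was at 98.3, 97.0, 102.0 and 101.8 FPKM in the enriched libraries, the highest level of the 10 genes there. The rise was 1.42 ± 0.20 (SE) on the log2 scale (limma adjusted p = 0.00235), 1.09 after T cell scaling and 1.19 with flow-through replicate 1 left out. NK cells also carry CD160. Of 9 NK cell markers tested, 6 rose (3 after T cell scaling and 5 with flow-through replicate 1 left out), with a summed level over all 10 of 80.4 to 233.8 FPKM in the flow-through, against 240.4 to 491.7 in the enriched libraries and none at 0. Ncr1, a defining NK marker, was at 0.623, 2.15, 1.17 and 2.68 FPKM in the flow-through. It was at 7.33, 19.5, 13.3 and 27.1 FPKM in the enriched libraries. The part of NK cells in the Cd160 difference was not tested.

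Btla was at 7.85, 17.7, 14.9 and 16.7 FPKM in the flow-through, against 19.8, 22.6, 24.3 and 28.2 in the enriched libraries. The groups did not overlap, and the log2 fold change of 0.74 (SE 0.23) was just past the threshold (limma adjusted p = 0.0451). It did not pass after T cell scaling (0.41, adjusted p = 0.131), or without flow-through replicate 3 (0.78, adjusted p = 0.0839) or any 1 of the enriched replicates (0.66 to 0.82, adjusted p = 0.0544 to 0.115). B cells carry BTLA as well. None of 6 B cell markers tested passed in limma, with 0 at an unadjusted p under 0.05. With the mouse as a block 1 rose and 1 fell. The summed level of all 7 was 21.4 to 61.0 FPKM in the flow-through, against 27.3 to 74.0 in the enriched libraries. The part of B cells in the Btla difference was not tested.

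Tnfrsf14 was at 70.8, 28.9, 34.6 and 32.0 FPKM in the flow-through, against 28.2, 24.8, 32.7 and 24.4 in the enriched libraries, and its log2 difference of -0.49 did not pass (limma adjusted p = 0.188). The ratio of Btla to Tnfrsf14 was 0.111, 0.612, 0.432 and 0.522 in the flow-through. It was 0.702, 0.912, 0.743 and 1.16 in the enriched libraries, higher in 4 of 4 mice. The log2 difference was 1.29 (exact permutation p = 0.0286, adjusted p = 0.0358). Flow-through replicate 1 set much of its size, since the difference was 0.74 without it, and p was 0.0571 to 0.0857 when any 1 of the enriched replicates was left out (1.15 to 1.39).

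The ratio of Ctla4 to Cd28 was 0.294, 0.332, 0.320 and 0.382 in the flow-through, against 0.260, 0.482, 0.404 and 0.559 in the enriched libraries. It was higher in 3 of 4 mice and the groups overlapped. The log2 difference of 0.31 did not pass (exact permutation p = 0.286, adjusted p = 0.286), and was 0.53 without enriched replicate 1 (exact permutation p = 0.0286, not adjusted).

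**Figure D2:**
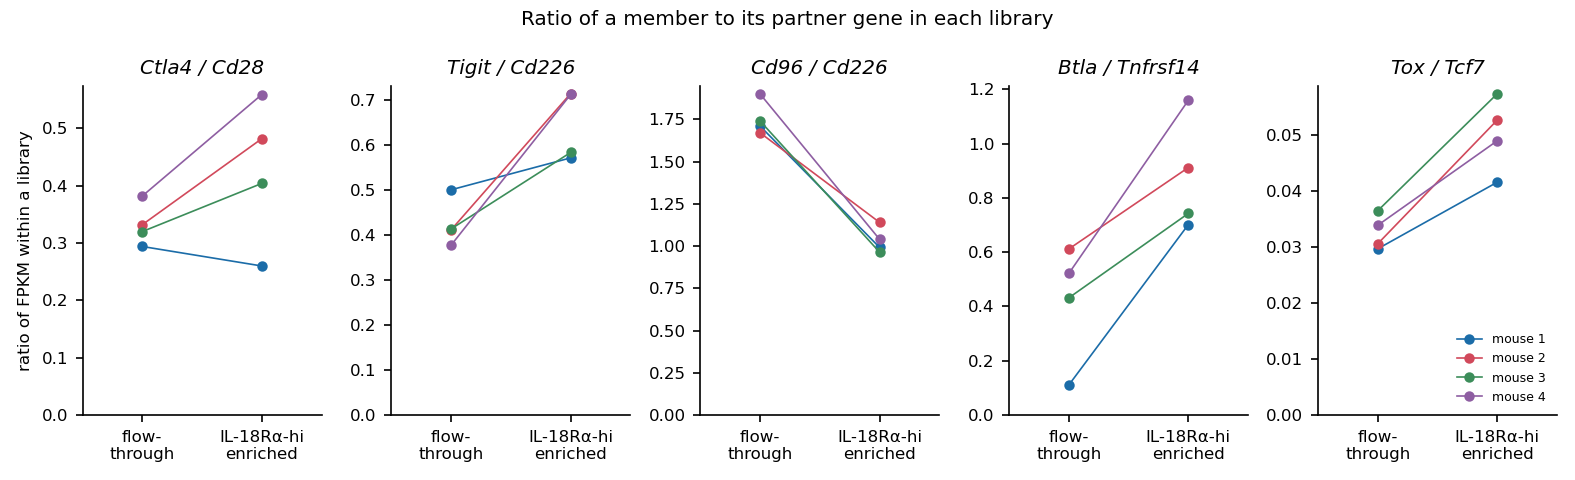
Ratio of FPKM within each library for 5 pairs of genes, with lines joining the flow-through and the IL-18Rαhi-enriched library of each mouse and axes that start at 0. The ratio of Cd96 to Cd226 fell in all 4 mice, those of Tigit to Cd226, Btla to Tnfrsf14 and Tox to Tcf7 were higher in all 4, and that of Ctla4 to Cd28 was higher in 3.

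Cd200r1 (ENSMUSG00000022667, chromosome 16, 44765736 to 44794978, plus strand) encodes the receptor for CD200. Its level was 2.11, 5.00, 3.62 and 3.99 FPKM in the flow-through. It was 9.12, 9.53, 8.71 and 12.5 FPKM in the enriched libraries, without overlap. The rise was 1.25 ± 0.20 (SE) on the log2 scale (limma adjusted p = 0.00392), 0.92 after T cell scaling and 1.07 with flow-through replicate 1 left out. Cd200 had a log2 difference of 0.76 that did not pass (limma adjusted p = 0.0952) but did with the mouse as a block (adjusted p = 0.0112). Cd200r1 has close paralogs beside it, so the values of this family depend on how reads shared among them were assigned. Of 2 paralogs tested, Cd200r3 rose from 0.895 ± 0.519 to 3.54 ± 1.52 FPKM (log2 fold change 1.24, limma adjusted p = 0.0132) but not past the threshold after T cell scaling (0.91, adjusted p = 0.060), and Cd200r4 had a difference of 0.42 that did not pass (limma adjusted p = 0.168). Cd200r2 was at most 0.119 FPKM.

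Basophils and mast cells carry receptors of the CD200R family. Mcpt8, a basophil protease, was at 28.9, 87.4, 33.4 and 49.1 FPKM in the flow-through, against 91.2, 200.7, 92.7 and 144.0 in the enriched libraries. Of 8 mast cell and basophil markers, Cd200r3 among them, 2 rose and 2 fell (1 and 2 after T cell scaling). Their summed level was 99.7 to 203.6 FPKM in the flow-through, against 143.5 to 314.4 in the enriched libraries, with none at 0. In the flow-through, Mcpt8 and Cd200r1 ranked the mice in the same order. In the enriched libraries they did not, with the highest Mcpt8 in replicate 2 and the highest Cd200r1 in replicate 4. The part of these cells in the Cd200r1 difference was not tested.

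**Figure D3:**
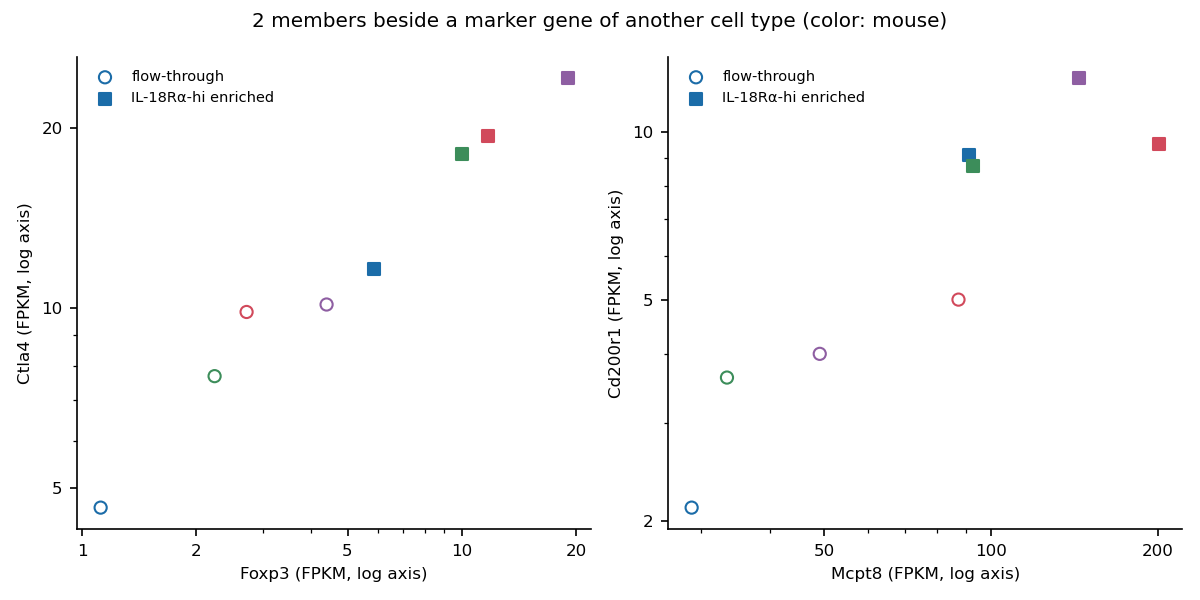
Ctla4 against Foxp3 (left) and Cd200r1 against Mcpt8 (right) in FPKM on log axes, with open circles for flow-through and filled squares for IL-18Rαhi-enriched libraries and 1 color per mouse. Ctla4 and Foxp3 order the mice alike within each fraction, an order that the NK cell marker Ncr1 (not plotted) also gives. Cd200r1 and Mcpt8 order them alike in the flow-through. In the enriched libraries the highest Mcpt8 (200.7 FPKM) and the highest Cd200r1 (12.5 FPKM) lie in different mice.

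Tox (ENSMUSG00000041272, chromosome 4, 6686353 to 6991557, minus strand) was at 5.98, 11.5, 11.5 and 13.2 FPKM in the flow-through. It was at 11.6, 13.9, 15.9 and 15.4 FPKM in the enriched libraries. It was higher in 4 of 4 mice, but the groups overlapped and the log2 difference of 0.44 did not pass (95% confidence interval -0.06 to 0.93, limma adjusted p = 0.164). With the mouse as a block it passed (limma adjusted p = 0.0247), and after T cell scaling the difference was 0.11 (adjusted p = 0.645). The antisense gene Gm11802 overlaps Tox and reached at most 2.02 FPKM, and strand was not used in the quantification.

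Of 15 factors linked to exhaustion that were tested, Tox included, 8 rose and none fell, and with the mouse as a block 12 rose. Maf rose from 2.80 ± 0.787 to 11.3 ± 1.34 FPKM (log2 fold change 1.71), and Id2 from 103.6 ± 29.5 to 311.7 ± 29.9 FPKM (1.63). Tox2, a paralog of Tox, rose from 2.35 ± 0.806 to 7.03 ± 0.540 FPKM (1.29). Nfatc1, Nfatc2, Batf, Irf4 and Prdm1, which act downstream of antigen receptor signaling, rose as well. After T cell scaling 7 of the 15 rose, without Nfatc1 (0.40, adjusted p = 0.115). Besides Tox, Nr4a1, Nr4a2, Nr4a3, Tox4, Ikzf2 and Eomes did not pass. Of these, Nr4a1 (0.67, limma adjusted p = 0.00241), Nr4a3 (0.50, adjusted p = 0.00748) and Ikzf2 (0.81, adjusted p = 0.000637) passed with the mouse as a block, while Tox4 (adjusted p = 0.979), Eomes (0.08, adjusted p = 0.604) and Nr4a2 (0.15, adjusted p = 0.282) did not. Many of these factors also serve in ordinary effector cells.

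Of 8 progenitor and memory factors, none rose and 3 fell: Myb from 82.9 ± 5.17 to 26.8 ± 5.23 FPKM (log2 fold change -1.61), Bach2 (-1.11) and Lef1 (-0.75). MYB also acts in hematopoietic progenitors. Kit fell from 32.3 ± 4.02 to 14.4 ± 2.28 FPKM (limma adjusted p = 0.00136), and Gata2 from 18.3 ± 3.99 to 9.98 ± 2.60 FPKM (adjusted p = 0.0227). Both are on the list of 8 mast cell and basophil markers, of which 2 others rose. Car1 fell from 881.6 ± 328.1 to 152.7 ± 80.8 FPKM (limma adjusted p = 0.00302), the only 1 of 8 erythroid markers to pass (5 fell with the mouse as a block). The part of progenitor and erythroid cells in the fall of Myb was not tested. Tcf7, which encodes TCF1, had a difference of -0.13 that did not pass (95% confidence interval -0.58 to 0.31, limma adjusted p = 0.634). After T cell scaling it was -0.46 (limma adjusted p = 0.0632). With flow-through replicate 1 left out Tcf7 fell past the threshold (-0.34, limma adjusted p = 0.0351), and 4 of the 8 factors fell. The ratio of Tox to Tcf7 was 0.0297, 0.0306, 0.0365 and 0.0339 in the flow-through. It was 0.0416, 0.0527, 0.0574 and 0.0490 in the enriched libraries, higher in 4 of 4 mice. The log2 difference was 0.61 (exact permutation p = 0.0286, adjusted p = 0.0358), and p was 0.0571 without flow-through replicate 1 (0.57) or 2 (0.58). Tcf7 remained far more abundant than Tox in every library.

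**Figure D4:**
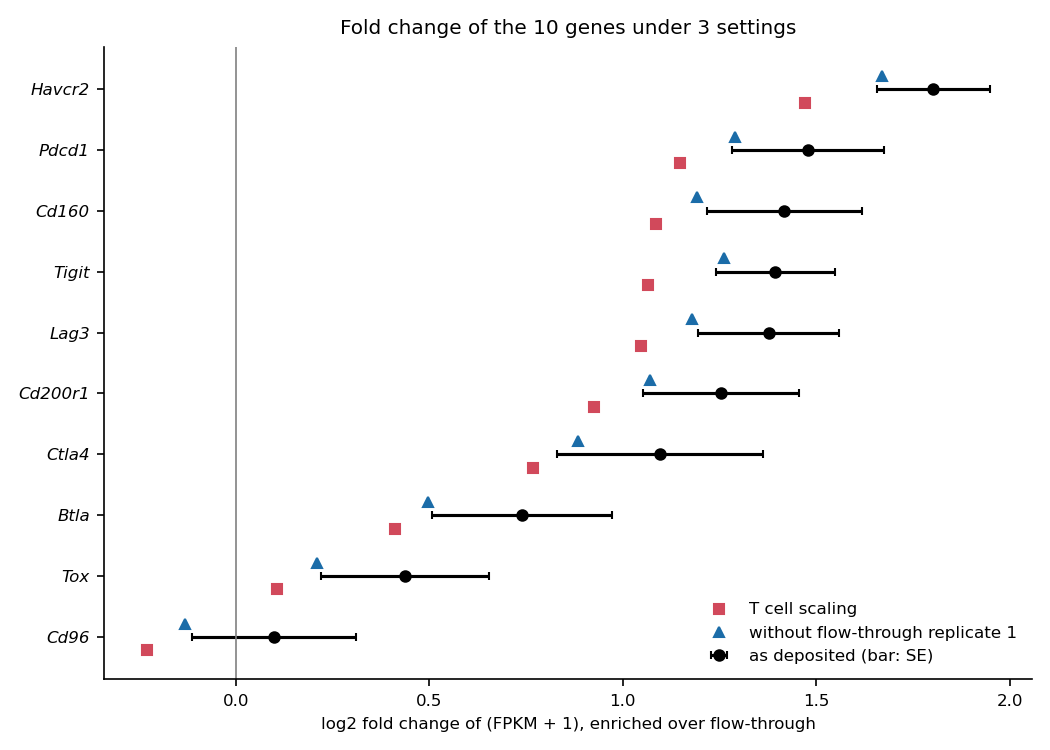
Log2 fold change of (FPKM + 1), enriched over flow-through, of the 10 genes as deposited (black, bars give the SE), after T cell scaling (red squares) and with flow-through replicate 1 left out (blue triangles). Havcr2 is highest at 1.80, and Cd96 is the single gene whose sign turns, from 0.10 to -0.23 and -0.13.

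Activating receptors of T cells, listed together with the ligand Tnfsf14, were also higher. Of this list, Cd28 and Cd226 are the partners in the ratios above, and neither passed after T cell scaling. Of 9 tested, 7 rose and none fell, with a median log2 fold change of 0.86 against -0.02 over all genes, and 3 rose after T cell scaling. Icos rose from 28.1 ± 6.51 to 88.2 ± 4.33 FPKM (log2 fold change 1.64), Tnfrsf4 (OX40) by 1.59 and Tnfsf14 (LIGHT, a ligand of HVEM) by 1.49. Of 18 other inhibitory receptors, 10 rose and none fell (5 rose and 1 fell after T cell scaling), led by Klrc1 (NKG2A, 1.48), Cd244a (2B4, 1.39) and Klrg1 (1.17). Several of these, Klrc1, Cd244a and Klrg1 among them, are also receptors of NK cells, whose marker sums are given with Cd160.

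Of 12 ligand genes tested of 16, 3 rose and 2 fell, all named above (1 rose and 2 fell after T cell scaling, and 7 rose and 2 fell with the mouse as a block). Of 14 genes that relay inhibitory signals, 7 rose and none fell, with a median of 0.28. The adaptor Dok2 rose from 44.6 ± 9.17 to 96.5 ± 6.05 FPKM (log2 fold change 1.12), Pag1, which anchors the inhibitory kinase Csk, by 0.95 and the phosphatase Ubash3b by 0.62. After T cell scaling 2 of the 14 rose and 1 fell, and Ubash3b did not pass (0.29, adjusted p = 0.233). In the lists of activating receptors, other inhibitory receptors, relay genes and factors, each direction with no call in limma also had 0 genes at an unadjusted p under 0.05. None of the 8 CD8 T cell identity genes passed in limma, with 2 higher at an unadjusted p under 0.05, and their summed level was 1573 to 2951 FPKM in the flow-through, against 3014 to 3225 in the enriched libraries, so the labelled cell type was abundant in all.

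**Figure D5:**
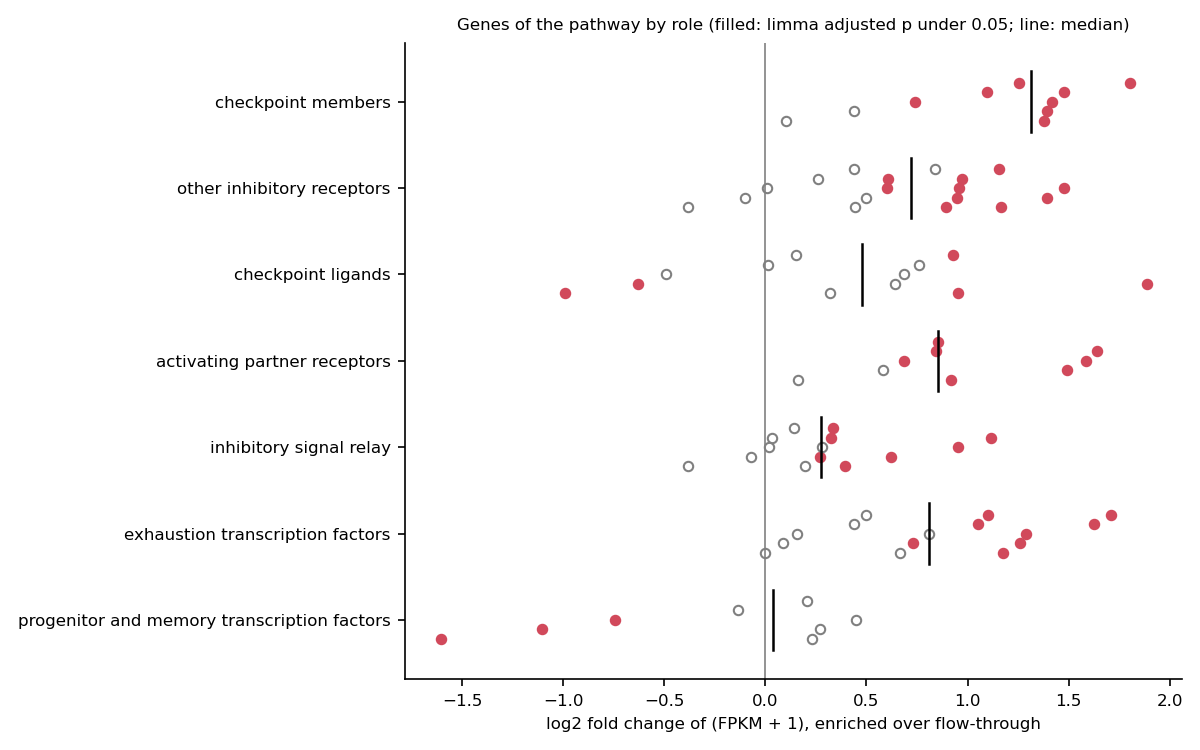
Log2 fold change of (FPKM + 1), enriched over flow-through, of single genes grouped by role, with filled points for a limma adjusted p under 0.05, open points for the others and a line at each group's median. The 10 checkpoint genes have the highest median (1.32) of the 7 groups, and the progenitor and memory factors have the median nearest to 0 (0.04).

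Other cell types not yet given varied as follows. Of 7 γδ T cell markers, 4 rose, 3 after T cell scaling (sums of 55.0 to 81.5 and 79.7 to 163.8 FPKM), and of 3 invariant NKT and MAIT cell markers tested 1 rose, 0 after T cell scaling, with Trav11d at 0 in all libraries (sums over 5 markers of 6.65 to 14.6 and 13.7 to 16.3 FPKM). Of 8 erythroid markers 1 fell, with sums of 876.5 to 2705 FPKM in the flow-through, against 216.8 to 1511 in the enriched libraries. Their part in the checkpoint differences was not tested. Neither was the part of the cell types given earlier in the differences of Pdcd1, Lag3 and Tigit.

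The levels can be compared per length. In the flow-through the order was Cd96, Cd160, Lag3, Btla, Tigit, Tox, Pdcd1, Ctla4, Cd200r1 and Havcr2, from 53.7 to 3.35 FPKM on average. Cd160 and Lag3 were the single neighbouring pair in it whose ranges did not overlap. In the enriched libraries the order was Cd160, Cd96, Lag3, Tigit, Pdcd1, Btla, Ctla4, Tox, Havcr2 and Cd200r1, from 99.8 to 9.96 FPKM. There, Cd160, Cd96, Lag3 and Tigit each lay above the next with no overlap among them, and the ranges of all later neighbours overlapped. By the mean, Pdcd1 stood below Btla and Tox in the flow-through and above both in the enriched libraries, with ranges that overlapped those of its neighbours in the order.

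The 9 receptors summed to 161.0 ± 44.8 FPKM in the flow-through, against 329.7 ± 18.5 in the enriched libraries. Cd96 made up 32.5%, 33.3%, 32.5% and 34.6% of that sum in the flow-through, against 17.6%, 17.3%, 15.8% and 16.7% in the enriched libraries. Cd160 went from 23.6% ± 0.908 to 30.3% ± 1.39, Lag3 from 11.3% ± 0.382 to 14.4% ± 1.12 and Havcr2 from 2.12% ± 0.233 to 4.25% ± 0.301 (SD, n = 4). These shares were close among the 4 flow-through libraries, replicate 1 included, although its summed level was 97.2 FPKM against 162.7 to 193.7 in the others.

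For each gene, the most alike genes were those with the highest Pearson's r over the 8 libraries among the 9329 genes whose mean reached 5 FPKM. The libraries form 2 fractions and share the low values of flow-through replicate 1, so r is a description. For Pdcd1 they were Arhgap31 (r = 0.997), Cisd3 (0.996) and Ttc39b (0.994). For Ctla4 they were Cd74 (r = 0.995), the invariant chain of MHC class II, Itgb3 (0.995) and Naaa (0.994). For Lag3 they were Esyt1 (r = 0.999), Il2rb (0.998), a chain of the IL-2 and IL-15 receptors, and Anxa6 (0.998). For Havcr2 they were Sytl2 (r = 0.995), Ly6g5b (0.993) and Klf10 (0.992).

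For Tigit they were Fam129a (r = 0.996), Maf (0.996) and Rap1gds1 (0.995). For Cd160 they were the factor Batf (r = 0.999), Wdr1 (0.998) and Cap1 (0.998). For Btla they were Pak2 (r = 0.996), Tmod3 (0.991) and Prf1 (0.991), which encodes perforin. For Cd200r1, whose mean was above 5 FPKM, they were Pmaip1 (r = 0.997), Fhl3 (0.996) and Chsy1 (0.995). Cd96 and Tox had other neighbours in pattern: Ltb (r = 0.985), B4galnt1 (0.984) and Sec63 (0.983) for Cd96, and Parp14 (0.993), Ifit1 (0.993) and Relb (0.988) for Tox. Ltb ran at 178.4, 291.1, 272.0 and 320.5 FPKM in the flow-through, against 262.7, 278.2, 250.9 and 289.1 in the enriched libraries, with the same low flow-through replicate 1 as Cd96.

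On the genome, 4 of the genes (Tigit, Cd200r1, Btla and Cd96) lie within 2.47 Mb of chromosome 16, and of these 3 rose. Among genes whose start lies within 500 kb, 5 of 6 tested around Ctla4 rose (Icos, Cd28, Raph1, Abi2 and Gm11579). Around Havcr2, 4 of 9 rose (Adam19, Gm16033, Fndc9 and Cyfip2). Over all genes tested 14.1% rose and 13.7% fell. Around Lag3, 5 of 40 rose and 5 fell, around Btla 3 of 8 rose, and around Cd200r1 2 of 10. Cd200r1 is itself among the 3 around Btla, and Btla among the 2 around Cd200r1. Around Cd160, 2 of 11 rose and 1 fell. Around Pdcd1 (7 tested) and Tigit (6 tested) none rose and 2 fell each, and around Cd96 (2 tested) and Tox (1 tested) none passed. After T cell scaling 1 neighbour of Ctla4 (Icos), 2 of Lag3 and 1 of Btla (Cd200r1) rose, and none of Havcr2, Cd200r1 or Cd160. Over all genes tested 3.04% then rose. Cd160 overlaps Pdzk1 on the opposite strand, which reached at most 0.924 FPKM.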

How the data were processed

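Poly(A) RNA was sequenced as 150-base paired ends from stranded libraries. The deposited values are FPKM: the authors filtered reads by quality, mapped them to mm10 with TopHat and ran Cufflinks 2.1.1 with multi-read and fragment-bias correction and default options otherwise, which do not use strand. The annotation release is not given in the sources used here. Of the gene identifiers, 98.9% were in GENCODE M21, which gave positions. Depth was estimated from the FPKM worth of 1 fragment in low single-transcript genes, so no counting interval is given. Groups came from the labels.

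Fractions were compared with limma 3.58.1 (R 4.3.3, variance trend) on log2(FPKM + 1) over the 12166 genes whose mean reached 1 FPKM, without a block, with Benjamini-Hochberg adjustment at 0.05. Fold changes on this scale understate those of low genes. The scripts were tested on simulated data. Both fractions came from each mouse, and the deviations of same-numbered libraries correlated at 0.308 to 0.66 (other numbers -0.6 to 0.412), so the numbers pair the samples. P-values measure the spread among 4 mice of 1 experiment. Alternatives were a pseudocount of 0.1, no filter, a filter at 5 FPKM, T cell scaling, median-ratio scaling, a block for the mouse and leaving out each library. T cell scaling with the block was added after seeing the data. Named are all 10 genes, the 3 largest changes past the threshold of each list, partners, ligands and relays, neighbours within 500 kb on a list or past the threshold, and the 3 most alike genes. Other genes named from the lists were chosen after their values were seen. The genes and all lists were chosen with earlier results of these data known.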

Additional observations from a re-analysis of the deposited data

Results flagged for a closer look

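Havcr2 was at 2.27 FPKM in flow-through replicate 1, far from the 3.66 to 3.75 FPKM of the other flow-through libraries by Dixon's criterion for 4 samples. Of 30 groups of libraries examined, this was the 1 group with such a library, and chance gives about 1.5. Without it the log2 fold change of Havcr2 was 1.67 in place of 1.80, and it passed the test (limma adjusted p = 0.000154).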

How the results depend on the processing

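Pdcd1, Lag3, Havcr2, Tigit, Cd160 and Cd200r1 rose past the threshold under every alternative run. T cell scaling took Ctla4 to 0.77 and Btla to 0.41 on the log2 scale, neither past the threshold, and turned Cd96 to -0.23. With the mouse as a block in addition, Btla was at 0.41 and Cd96 at -0.23, again not past it. Without the filter on low values Btla (0.74) did not pass (adjusted p = 0.0863). The replicate block brought Tox (0.44) past the threshold and changed no other call among the 10 genes. Leaving out 1 library at a time gave 0.88 to 1.29 for Ctla4, -0.13 to 0.21 for Cd96 and 0.50 to 0.86 for Btla, and 6 to 8 of the 10 genes rose.

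Over all genes, 1720 were higher and 1664 lower. T cell scaling gave 370 and 865, so 30.0% of the calls were higher in place of 50.8%, the block gave 2705 and 2763, and both together gave 405 higher (16.4% of the calls). Leaving out 1 library gave 1107 to 1813 higher and 939 to 1780 lower. The cause of these shifts was not tested.

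The ratio differences ranged, when 1 library was left out, from 0.16 to 0.53 (Ctla4 to Cd28), 0.55 to 0.68 (Tigit to Cd226), -0.81 to -0.73 (Cd96 to Cd226), 0.74 to 1.56 (Btla to Tnfrsf14) and 0.55 to 0.70 (Tox to Tcf7). Paired by mouse, an exact sign-flip permutation test over 16 arrangements cannot go below p = 0.125, and gave 0.125 for each ratio except Ctla4 to Cd28 (0.25). FPKM without counts gives no counting error for low genes.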
